A study of Mus musculus with 75 samples.

Results

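The comparison described here asks how gene expression stood after 3 h of tumor necrosis factor (TNF) in fibroblasts that have no RelA. Its members are 4 of the 75 RNA sequencing libraries, 2 from EV cells after 3 h of TNF and 2 from EV cells before TNF (0 h), chosen by construct and time and paired by the deposited set that holds them. EV stands for empty vector: mouse embryonic fibroblasts of strain C57BL/6 with the genotype p53-/-crel-/-rela-/- that carried pBABE-puro with no insert. They were set beside the same knockout cells with RelA-WT, with RelA-dTAD (RelA without its transactivation domains) and with RelA-DB (a DNA-binding mutant of RelA, 1 library at each time), all put back with the same retroviral vector. All of these cells lacked p53 and c-Rel, including those given RelA back, and all had spent the night in 0.5% serum before TNF at 10 ng/ml. The labels name the cells primary and do not say whether they are 1 clone or whether the 2 libraries of a group are separate cultures, so p-values measure the spread between these libraries, which may be technical. No library from 3 h without TNF was analysed here, so TNF and 3 more hours in low serum cannot be told apart. In bulk RNA, fewer cells of a type and less RNA per cell cannot be told apart either.

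TNF binds its receptor TNFR1, which gathers the adaptors TRADD and TRAF2 and the kinase RIPK1 and through them starts the kinases TAK1 and IKK. IKK frees NF-kB dimers from the inhibitor IkB-alpha, and RelA is the subunit that drives most inflammatory genes in fibroblasts. TAK1 also starts the JNK and p38 kinases, which together with ERK act on the AP-1 factors (dimers of FOS, JUN, ATF and MAF proteins) and on immediate early genes, whose transcription needs no new protein. Products of these genes, such as the dual specificity phosphatases and the ZFP36 proteins, then damp the kinases and the messenger RNAs.

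Set 1 libraries held 5476023 reads in EV cells at 3 h and 6847613 at 0 h, and set 2 libraries 12289045 and 11950062. Rela (ENSMUSG00000024927.7, chr19:5637483-5648130, mm10) checked the construct. It stood at 24.2 and 20.1 CPM (counts scaled to library size, corrected by trimmed mean of M values) in EV cells at 3 h and 16.5 and 15.4 CPM at 0 h, beside 1179.7 and 1455 CPM at 3 h and 1144 and 1468 CPM at 0 h in RelA-WT cells. Throughout, a pair of values gives set 1 and then set 2. Rel, which encodes c-Rel, had 23.6 and 26.7 CPM in EV cells at 3 h and 18.5 and 26.9 CPM at 0 h, and Trp53, which encodes p53, had 39.8 and 38.0 CPM at 3 h and 31.0 and 38.3 CPM at 0 h. Reads outside the deleted part of a gene do not check a knockout, and the deleted parts are not given in the sources used here. All 10 fibroblast markers, among them Col1a1 and Pdgfra, were detected, with a summed level of 47427 to 52654 CPM at 3 h and 44130 to 46285 CPM at 0 h. Of 8 macrophage markers 6 were too low to test, with Adgre1, Tyrobp and Fcgr1 at 0 reads in the 4 libraries. Their summed level, over the 2 that were tested, was 3.04 to 3.57 CPM at 3 h and 3.72 to 4.35 CPM at 0 h. The 3 neural markers tested summed to 219 and 185 CPM at 3 h and 213 and 190 CPM at 0 h. For the 4 epithelial markers tested it was 21.1 and 28.3 CPM at 3 h and 17.4 and 23.8 CPM at 0 h. The 2 muscle markers tested had 1.61 and 4.44 CPM at 3 h and 2.99 and 2.61 CPM at 0 h. The source of these reads was not tested.

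After 3 h of TNF, cells without RelA held more RNA of AP-1 and immediate early genes, of the phosphatases that act on the kinases, of a few chemokine and antiviral genes and of ribosome biogenesis genes. They held less RNA of 9 of 19 FOXO and starvation genes and of 11 of 30 genes of cell division, counts that fell to 1 and 0 in each fit without the set term or without a set. The counts of rises depended on the set term too. Without it, those of ribosome biogenesis went from 20 to 7, of chemokines from 6 to 4 and of interferon response genes from 5 to 2. Those of immediate early genes went from 25 to 19, of AP-1 genes from 11 to 10 and of MAP kinase phosphatases from 7 to 6. Of 13665 genes tested, 1261 rose (9.23%) and 957 fell (7%) at an adjusted p under 0.05 in edgeR's quasi-likelihood test, 16.2% in all. Most changes were small: the median log2 fold change was 0.402 among the genes that rose and -0.459 among those that fell, and -0.0138 over all genes tested. At least 2-fold differences were called for 113 genes that rose and 79 that fell, and at least 4-fold ones for 26 and 10. The genes nearest the threshold were Pgs1 and Msh3 just inside it (adjusted p of 0.0498 and 0.0499) and 4632415L05Rik and Mia2 just outside it (0.05002 and 0.0501). Without the set term (the fit that ignores which set a library is from) 412 genes rose and 126 fell. Without the EV libraries of set 1 it was 432 and 148, and without those of set 2 410 and 116. Across the fits with and without the set term and without each set, 194 genes that rose and 17 that fell were called every time.

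**Figure D1:**
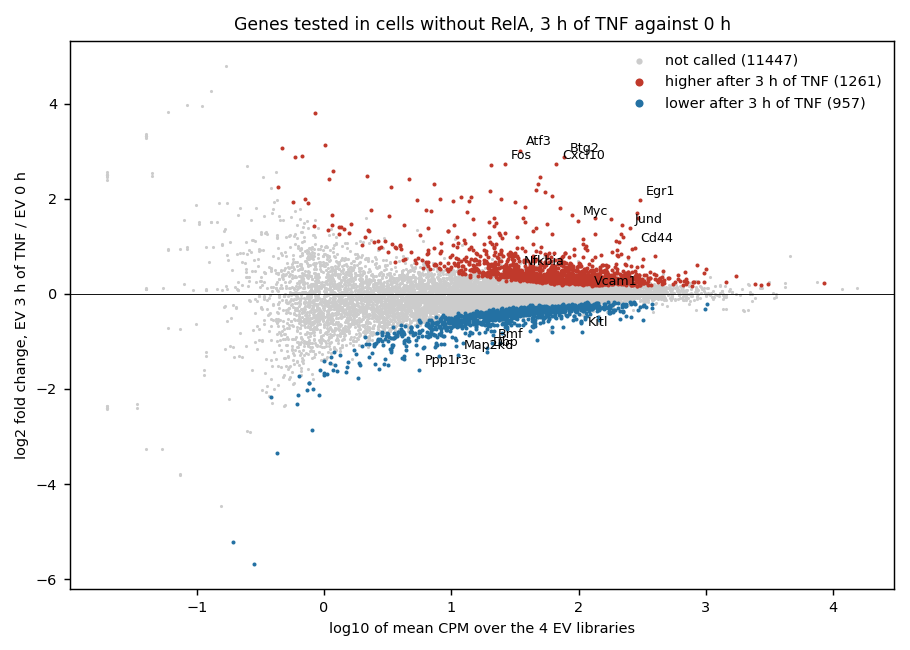
Log2 fold change of each gene tested (EV cells, 3 h of TNF over 0 h) against the log10 of its mean CPM in the 4 EV libraries; red points rose (1261), blue points fell (957) and grey points were not called. The 18 genes with no read in the 4 libraries are not drawn, and the largest called changes at well measured levels are rises such as Atf3, Btg2 and Fos.

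Among called genes with a mean of at least 5 CPM over the 4 EV libraries, the largest rise was that of Atf3 (ENSMUSG00000026628.11, chr1:191170296-191218039), a stress-induced bZIP factor. It had 59.1 and 64.4 CPM at 3 h, against 7.76 and 7.68 CPM at 0 h in EV cells. Btg2 (ENSMUSG00000020423.6, chr1:134075170-134079120), an antiproliferative gene, had 133 and 138 CPM at 3 h, against 20.5 and 16.9 CPM at 0 h. Both 3 h libraries lay far above both 0 h libraries, with log2 fold changes of 3.01 ± 0.30 for Atf3 (SE; adjusted p = 9.9e-07) and 2.88 ± 0.21 for Btg2 (adjusted p = 1.2e-08). Fos (ENSMUSG00000021250.11, chr12:85473890-85477273), the founding AP-1 gene, had 40.8 and 50.3 CPM at 3 h, against 9.25 and 5.54 CPM at 0 h. Cxcl10 (ENSMUSG00000034855.11, chr5:92346638-92348889), which draws T cells, had 99.6 and 134 CPM at 3 h, against 15.9 and 19.2 CPM at 0 h. These groups did not overlap either, and the changes were 2.73 ± 0.30 (adjusted p = 2.85e-06) and 2.73 ± 0.20 (adjusted p = 1.16e-08). Dusp8 (ENSMUSG00000037887.9, chr7:142079490-142095843), a phosphatase of JNK and p38, had 28.3 and 42.0 CPM at 3 h, against 5.58 and 5.47 CPM at 0 h, a change of 2.72 ± 0.19 (adjusted p = 6.15e-12). These genes were chosen by the size of their change in these 4 libraries, so groups that stand apart add no support. The same holds below for the largest falls and for list genes taken by smallest p.

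What promoter sites do in these cells was not tested, and other large rises with NF-kB or AP-1 sites are not shown. Shown are the promoters of Btg2, Dusp8 and Dusp1, which hold a cyclic AMP response element, and of Cxcl10, picked by name. They are the 250 bases before the RefSeq start (GRCm38.p6, the mm10 assembly), written 5′ to 3′ on the gene's strand, which is the minus strand for all 4. Capitals mark the cyclic AMP response element TGACGTCA (CRE), bound by ATF and CREB factors, in Btg2, Dusp8 and Dusp1, and in Cxcl10 the 2 kB sites and the TGANTCA element (TRE) that AP-1 binds.
Btg2 (chr1:134079156-134079405): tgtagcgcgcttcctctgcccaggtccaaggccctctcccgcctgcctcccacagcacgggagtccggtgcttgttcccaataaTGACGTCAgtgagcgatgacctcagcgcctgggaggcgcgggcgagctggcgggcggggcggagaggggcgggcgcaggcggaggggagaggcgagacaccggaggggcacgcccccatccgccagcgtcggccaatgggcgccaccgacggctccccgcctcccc
Dusp8 (chr7:142095285-142095534): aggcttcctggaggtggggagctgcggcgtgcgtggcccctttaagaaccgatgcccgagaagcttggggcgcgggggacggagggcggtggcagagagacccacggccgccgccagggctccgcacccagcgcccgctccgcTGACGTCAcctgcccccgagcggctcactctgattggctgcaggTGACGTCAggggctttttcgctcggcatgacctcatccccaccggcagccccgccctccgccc
Dusp1 (chr17:26508473-26508722): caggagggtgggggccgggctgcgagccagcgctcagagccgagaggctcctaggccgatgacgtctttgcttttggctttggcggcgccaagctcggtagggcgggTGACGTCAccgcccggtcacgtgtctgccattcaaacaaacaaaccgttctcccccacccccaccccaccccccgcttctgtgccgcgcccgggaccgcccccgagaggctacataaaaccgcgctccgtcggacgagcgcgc
Cxcl10 (chr5:92348890-92349139): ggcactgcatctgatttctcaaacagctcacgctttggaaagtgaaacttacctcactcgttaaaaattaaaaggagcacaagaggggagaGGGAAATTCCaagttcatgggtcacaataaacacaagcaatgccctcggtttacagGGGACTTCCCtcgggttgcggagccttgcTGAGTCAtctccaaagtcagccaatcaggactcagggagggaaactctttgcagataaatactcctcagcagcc
The site begins at -166 in Btg2, at -107 and -63 in Dusp8 and at -143 in Dusp1. In Cxcl10 the kB sites begin at -159 and -103 and the TRE at -74.

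Both strands were searched from 250 bases before to 50 after the start, and RefSeq had a promoter for 14 of the 20 largest rises and 16 of the 20 largest falls. A CRE was found for 3 of the 14 rises (21.4%), for 0 of the 16 falls and for 3.58% of 10435 genes tested that had a promoter. A kB site was found for 6 of the 14 rises (42.9%), among them Fos, Nr4a1, Ier3 and Cxcl1, for 1 of the 16 falls (Bmf) and for 6.57% of genes tested. A TRE was found for 2 rises (14.3%, Cxcl10 and Rsad2), for 1 fall (Map2k6) and for 6.28% of genes tested, and a CArG box, the site of serum response factor, for 1 rise (Egr2) and 1.58% of genes tested. No CRE match is a TRE match, and a match is a description of the letters in this window.

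Of the other genes among the 20 largest rises, Rsad2, the antiviral viperin gene, had 64.7 and 104 CPM at 3 h, against 13.1 and 17.5 CPM at 0 h. Gjb2, which encodes a gap junction protein, had 6.81 and 17.5 CPM at 3 h, against 1.36 and 3.49 CPM at 0 h. Cd274, which encodes the ligand PD-L1, had 10.9 and 15.4 CPM at 3 h, against 2.72 and 3.88 CPM at 0 h. Their changes were 2.47 ± 0.36 for Rsad2 (adjusted p = 9.73e-05), 2.32 ± 0.26 for Gjb2 (1.68e-07) and 1.99 ± 0.24 for Cd274 (4.86e-07). The call of Gjb2 was lost without the set term (adjusted p = 0.096). Fam167a rose by 2.04 ± 0.29 (adjusted p = 2.32e-05), with 14.9 and 23.4 CPM at 3 h, against 3.54 and 5.70 CPM at 0 h.

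**Figure D2:**
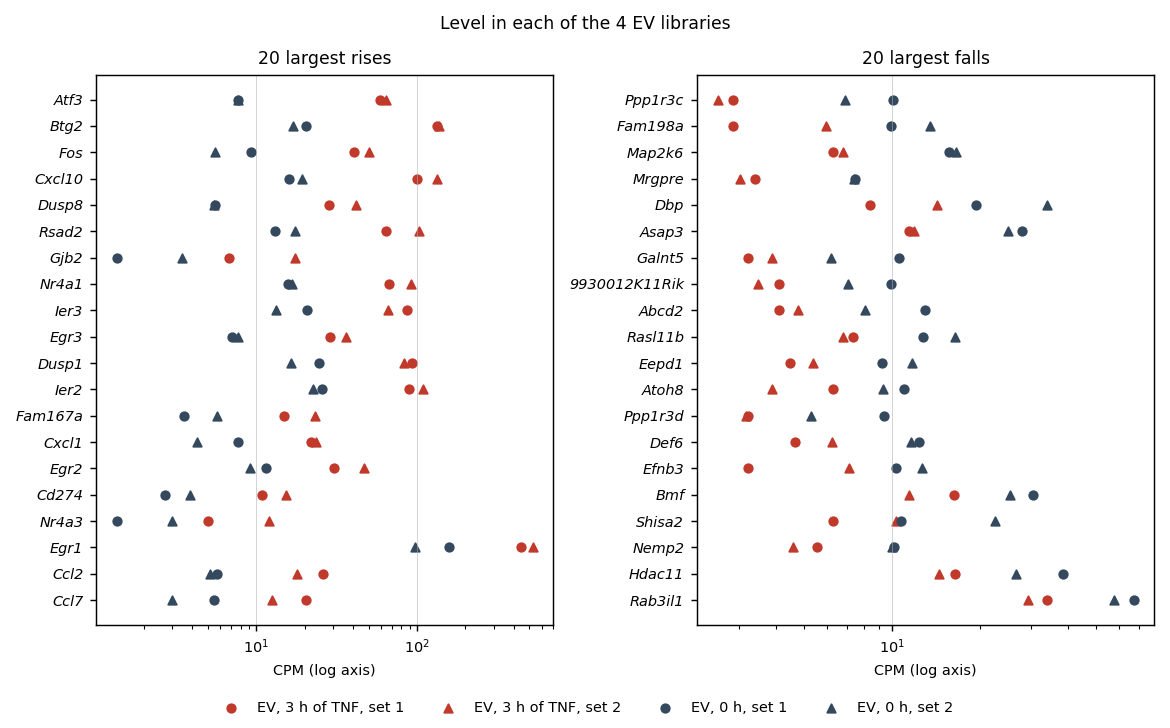
CPM on a log axis in each of the 4 EV libraries for the 20 genes with the largest rise (left) and the 20 with the largest fall (right) among called genes with a mean of at least 5 CPM; red marks 3 h of TNF, dark blue 0 h, circles set 1 and triangles set 2. The genes were chosen by the size of their change in these 4 libraries, from Atf3 at the top of the rises and Ppp1r3c at the top of the falls.

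Of 14 AP-1 and related bZIP genes tested 11 rose and none fell, with a median log2 fold change of 1.29, beside 9.23% and -0.0138 over all genes. Each list count below is to be read beside 9.23% higher and 7% lower over all genes tested. A count near those shares is no result about its list. The JUN genes moved together: Jun had 387 and 488 CPM at 3 h, against 109 and 161 CPM at 0 h in EV cells. Junb had 87.0 and 135 CPM at 3 h, against 31.7 and 32.3 CPM at 0 h, and Jund had 359.8 and 367 CPM at 3 h, against 136 and 143 CPM at 0 h. None of these groups overlapped, and the changes were 1.70 ± 0.20 (adjusted p = 8.4e-06), 1.81 ± 0.13 (8.16e-10) and 1.38 ± 0.09 (4.06e-12). Of the partners, Fosl2 rose by 1.2 ± 0.14 (adjusted p = 7.21e-06) and Fosl1 by 1.58 ± 0.21 (8.53e-06). The small MAF genes Maff, Mafk and Mafg, whose products lack an activation domain, rose by 1.49 ± 0.22, 0.87 ± 0.12 and 0.47 ± 0.08. Fosb had 7.34 and 14.4 CPM at 3 h, against 5.85 and 5.47 CPM at 0 h, a change of 1.06 ± 0.32 (adjusted p = 0.0283) that was lost without the set term (adjusted p = 0.0805) and without set 2 (0.817). Jdp2, a bZIP repressor, was at 70.6 and 59.2 CPM at 3 h, against 75.9 and 78.7 CPM at 0 h (adjusted p = 0.0555), and Batf and Batf3 stayed below 1 CPM. The count of AP-1 genes that rose was 10 without the set term, 11 without set 1 and 10 without set 2.

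Of 32 immediate early genes outside AP-1, 25 rose and none fell (median 0.948). The EGR zinc finger genes were among them: Egr1 had 443 and 524 CPM at 3 h, against 158 and 97.7 CPM at 0 h in EV cells. Egr2 had 30.4 and 47.2 CPM at 3 h, against 11.6 and 9.11 CPM at 0 h, and Egr3 28.7 and 36.5 CPM at 3 h, against 7.08 and 7.68 CPM at 0 h. Each 3 h value lay above each 0 h value, with changes of 1.97 ± 0.31 (adjusted p = 0.000224), 2.00 ± 0.28 (4.54e-05) and 2.16 ± 0.20 (1.2e-08). The orphan nuclear receptor gene Nr4a1 had 67.2 and 92.0 CPM at 3 h, against 15.8 and 16.8 CPM at 0 h, a change of 2.32 ± 0.37 (adjusted p = 0.000254). Ier2 and Ier3, immediate early response genes, rose by 2.07 ± 0.20 (5.41e-07) and 2.19 ± 0.20 (1.8e-07). Trib1, a pseudokinase gene that steers protein breakdown, rose by 1.52 ± 0.12 (adjusted p = 9.73e-11), and Arc, best known from neurons, by 1.84 ± 0.17 (2.19e-08). Myc, the growth-promoting transcription factor gene, had 145 and 147 CPM at 3 h, against 55.8 and 46.2 CPM at 0 h, a change of 1.54 ± 0.21 (adjusted p = 4.12e-05). Klf4 and Klf6, zinc finger factor genes, rose by 0.95 ± 0.13 and 0.95 ± 0.14, and Sik1, a salt-inducible kinase gene, by 0.80 ± 0.11. Gadd45b, an NF-kB target that restrains JNK signalling, was at 36.4 and 26.6 CPM at 3 h, against 35.2 and 27.9 CPM at 0 h (adjusted p = 0.948). The count of 25 was 19 without the set term, 21 without set 1 and 12 without set 2, where the adjusted p of Egr1, Egr2 and Nr4a1 was 0.0697, 0.0568 and 0.0515.

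The phosphatases that take phosphate from MAP kinases rose as well: 7 of 10 tested rose and 1 fell (median 1.02), with 6 and 0 without the set term, without set 1 and without set 2. Dusp1, which acts on JNK and p38, had 93.3 and 83.4 CPM at 3 h, against 24.8 and 16.4 CPM at 0 h in EV cells, a change of 2.15 ± 0.30 (adjusted p = 7.53e-05). Dusp16, which acts on JNK, had 80.8 and 93.5 CPM at 3 h, against 36.7 and 36.6 CPM at 0 h. Dusp10, which acts on JNK and p38, had 39.9 and 46.4 CPM at 3 h, against 22.3 and 22.1 CPM at 0 h. For both genes the groups stood apart, with changes of 1.26 ± 0.11 (adjusted p = 1.33e-09) and 0.97 ± 0.15 (1.91e-05). Among those that act on ERK, Dusp6 had 34.2 and 35.4 CPM at 3 h, against 17.7 and 13.7 CPM at 0 h, a rise of 1.19 ± 0.14 (adjusted p = 3.34e-07). Dusp4 and Dusp5 rose by 0.90 ± 0.18 (0.000684) and 1.06 ± 0.30 (0.0188). Dusp7 fell (log2 fold change -0.35 ± 0.09, adjusted p = 0.00799). The rise of Dusp4 was lost without the set term (adjusted p = 0.0863), and Dusp5 and Dusp7 were lost without set 1 (0.122 and 0.124) and without set 2 (0.371 and 0.187).

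Of 16 genes of ERK output and feedback 9 rose and 2 fell (median 0.247), with 4 and 0 without the set term, 7 and 0 without set 1 and 4 and 0 without set 2. Errfi1, which encodes an inhibitor of the EGF receptor, had 236 and 297 CPM at 3 h, against 97.7 and 83.2 CPM at 0 h in EV cells. Il1rl1, the interleukin 33 receptor gene, had 252 and 388 CPM at 3 h, against 83.3 and 151 CPM at 0 h, and Phlda1 had 64.5 and 70.4 CPM at 3 h, against 33.3 and 35.2 CPM at 0 h. In each case the 3 h libraries lay above the 0 h ones, with changes of 1.57 ± 0.17 (adjusted p = 2.36e-06), 1.45 ± 0.22 (0.000129) and 0.98 ± 0.09 (4.71e-09). Of 11 EGF receptor ligand and receptor genes 3 rose and 2 fell (median 0.177), with 3 and 0 without the set term, 2 and 0 without set 1 and 1 and 0 without set 2. Hbegf, the gene of a ligand of the EGF receptor, had 61.6 and 71.0 CPM at 3 h, against 24.8 and 26.4 CPM at 0 h, a rise of 1.38 ± 0.17 (adjusted p = 5.91e-06). The ligand gene Areg stood at 1.25 and 2.70 CPM at 3 h, against 0.408 and 0.317 CPM at 0 h, a rise of 2.59 ± 0.50 (adjusted p = 0.000432) on low reads. Areg lost its call without set 2 (adjusted p = 0.375). The receptor gene Egfr was at 191 and 199.6 CPM at 3 h, against 239 and 271 CPM at 0 h, a fall (log2 fold change -0.38 ± 0.09, adjusted p = 0.00217) that was lost without the set term (0.102), without set 1 (0.0593) and without set 2 (0.173). Among 24 other growth factor and receptor genes 3 rose and 4 fell (median 0.117), with 2 and 1 without the set term and 1 and 1 without either set. Fgf7 rose by 0.81 ± 0.11 (adjusted p = 2.13e-06), and Kitl, the stem cell factor gene, had 61.8 and 93.6 CPM at 3 h, against 124 and 148 CPM at 0 h, a fall (log2 fold change -0.79 ± 0.13, adjusted p = 0.000118).

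Genes of proteins that bind and destabilise messenger RNA rose in 5 of 6 cases and none fell (median 0.572). Zfp36, which encodes tristetraprolin, had 39.6 and 59.8 CPM at 3 h, against 13.1 and 13.5 CPM at 0 h in EV cells. Its relative Zfp36l1 had 263 and 305 CPM at 3 h, against 126 and 140.1 CPM at 0 h. The 3 h libraries lay above the 0 h ones for both, with changes of 1.94 ± 0.20 (adjusted p = 8.03e-07) and 1.09 ± 0.08 (3.14e-11). Zfp36l2 rose by 0.60 ± 0.07 (adjusted p = 1.4e-07), a call lost without the set term (0.0832). Zc3h12a, which encodes regnase-1, was at 6.09 and 5.95 CPM at 3 h, against 4.76 and 3.72 CPM at 0 h (adjusted p = 0.0959). The count of 5 was 2 without the set term and 3 without either set.

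The TNF receptor and its adaptors were measured without a called change: 0 of 15 genes rose or fell (median 0.0695), and 0 without the set term, without set 1 or without set 2. Tnfrsf1a, the gene of TNFR1, had 139.9 and 129 CPM at 3 h, against 129 and 124 CPM at 0 h in EV cells. Birc3, which encodes the ubiquitin ligase cIAP2, had 13.4 and 12.3 CPM at 3 h, against 16.5 and 12.4 CPM at 0 h (adjusted p = 0.592). Of 22 kinases between the receptor and the nucleus 4 rose and 1 fell (median 0.0554), with 2 and 1 without the set term and without set 2 and 1 and 1 without set 1. Map3k14, which encodes the NF-kB inducing kinase, had 40.3 and 33.2 CPM at 3 h, against 20.3 and 11.2 CPM at 0 h, a rise of 1.29 ± 0.14 (adjusted p = 2.19e-08). Map2k6, the gene of a kinase that activates p38, had 6.27 and 6.82 CPM at 3 h, against 15.6 and 16.6 CPM at 0 h, a fall (log2 fold change -1.28 ± 0.18, adjusted p = 6.89e-06). Both calls held without the set term and without either set.

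Of 15 genes for NF-kB subunits and their inhibitors 4 rose and none fell (median 0.346), with 2 in each of the fits without the set term, without set 1 and without set 2. Nfkb2, the gene of p100, had 92.2 and 95.6 CPM at 3 h, against 72.7 and 60.5 CPM at 0 h in EV cells, a rise of 0.51 ± 0.09 (adjusted p = 9.7e-05) lost without set 2 (adjusted p = 0.107). Nfkbia, which encodes IkB-alpha, was at 41.9 and 36.9 CPM at 3 h, against 29.1 and 26.2 CPM at 0 h, a change of 0.50 ± 0.18 (adjusted p = 0.0586). For both genes the 3 h libraries lay above the 0 h ones. Tnfaip3, which encodes the brake A20, was at 11.1 and 8.64 CPM at 3 h, against 6.94 and 6.65 CPM at 0 h (adjusted p = 0.407). Relb was at 24.9 and 29.2 CPM at 3 h, against 17.4 and 20.4 CPM at 0 h (adjusted p = 0.0889), and Nfkb1 at 90.8 and 85.7 CPM at 3 h, against 79.0 and 73.7 CPM at 0 h (0.203). The 3 h libraries lay above the 0 h ones for these 3 genes too, but none was called.

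Of 18 chemokine genes 6 rose and none fell (median 0.649), with 4 without the set term and 1, Cxcl10, without either set. Ccl2, which draws monocytes, had 26.0 and 18.0 CPM at 3 h, against 5.71 and 5.15 CPM at 0 h in EV cells. The related Ccl7 had 20.4 and 12.5 CPM at 3 h, against 5.44 and 3.01 CPM at 0 h. Cxcl1, which draws neutrophils, had 22 and 23.5 CPM at 3 h, against 7.76 and 4.28 CPM at 0 h. No group overlapped, and the changes were 1.97 ± 0.40 (adjusted p = 0.00224), 1.96 ± 0.42 (0.00366) and 2.04 ± 0.52 (0.012). Without set 1 these adjusted p were 0.0734, 0.0602 and 0.0689, and without set 2 0.0675, 0.103 and 0.362. Ccl5, another T cell attractant, was at 9.31 and 8.16 CPM at 3 h, against 11.2 and 8.4 CPM at 0 h (adjusted p = 0.805). Cxcl2 had 1 read at 3 h and 0 at 0 h over the EV libraries, so no fold is given.

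Over all genes tested 9.23% rose, and 1 of 12 cytokine and colony stimulating factor genes tested did. This was Lif, with 10.0 and 9.51 CPM at 3 h, against 3.67 and 2.3 CPM at 0 h in EV cells, a change of 1.78 ± 0.44 (adjusted p = 0.00922). That call was lost without set 1 (adjusted p = 0.0598) and without set 2 (0.287). Csf1, the macrophage growth factor gene, was at 143 and 128 CPM at 3 h, against 148 and 132 CPM at 0 h (adjusted p = 0.884). Il6 was at 0.716 and 0.555 CPM at 3 h, against 0.272 and 0.0792 CPM at 0 h (adjusted p = 0.158). Tnf itself had 0 reads in the 4 libraries. Of 7 leukocyte adhesion genes 1 rose: Cd44, the hyaluronan receptor gene, had 373 and 359 CPM at 3 h, against 187 and 185 CPM at 0 h, a rise of 0.97 ± 0.12 (adjusted p = 4.58e-06) that held in each fit. Vcam1, which holds leukocytes to the vessel wall, stood at 133 and 111 CPM at 3 h, against 128 and 105 CPM at 0 h (adjusted p = 0.837). Icam1, which encodes a ligand of leukocyte integrins, stood at 1.61 and 5.87 CPM at 3 h, against 2.04 and 4.20 CPM at 0 h (adjusted p = 0.804). The groups overlapped for both genes.

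Of 28 interferon response genes 5 rose and none fell (median 0.279), with 2 without the set term, 3 without set 1 and 2 without set 2. Rsad2 and Irgm1, an interferon-induced GTPase gene, were called in each of these fits. Irgm1 had 178 and 206 CPM at 3 h, against 82.0 and 133 CPM at 0 h in EV cells, a rise of 0.83 ± 0.17 (adjusted p = 0.00219). Ifit1, whose product binds viral RNA, was at 263 and 352 CPM at 3 h, against 139 and 229.8 CPM at 0 h (adjusted p = 0.0527). Gbp2, another interferon-induced GTPase gene, was at 51.8 and 59.8 CPM at 3 h, against 36.5 and 39.0 CPM at 0 h (adjusted p = 0.093). Of 13 genes of MHC class I presentation none rose or fell (median -0.0355). The peptide transporter gene Tap1 had 9.67 and 19.6 CPM at 3 h, against 10.5 and 20.8 CPM at 0 h. Psmb10, an immunoproteasome gene, had 20.8 and 16.9 CPM at 3 h, against 24.4 and 19.8 CPM at 0 h (adjusted p of 0.911 and 0.347).

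Of 28 ribosome biogenesis genes 20 rose and none fell, by small amounts (median 0.362). Nop58, which encodes a core protein of small nucleolar particles, had 192 and 185 CPM at 3 h, against 116 and 130.3 CPM at 0 h in EV cells. Ddx21, a nucleolar helicase gene, had 212 and 264 CPM at 3 h, against 109 and 149 CPM at 0 h. Polr1b, a subunit gene of RNA polymerase I, had 36.0 and 37.9 CPM at 3 h, against 23.3 and 26.4 CPM at 0 h. Each pair of 3 h values lay above the 0 h pair, with changes of 0.61 ± 0.09 (adjusted p = 5.74e-06), 0.88 ± 0.16 (0.000941) and 0.57 ± 0.10 (0.000134). Gnl3, Wdr43 and Nop2 rose by 0.57 ± 0.09, 0.64 ± 0.10 and 0.67 ± 0.12. These 6 were called in each fit, while the count of 20 was 7 without the set term, 6 without set 1 and 9 without set 2. Among secretory genes, the chaperone gene Hspa5 and Xbp1, the factor of the unfolded protein response, rose by 0.44 ± 0.07 (adjusted p = 2.68e-05) and 0.49 ± 0.07 (1.21e-05), and 4 of 18 genes of that list rose and none fell (median 0.164), with 2 in each of the other fits.

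Of 20 genes of the plasminogen system and matrix proteases 5 rose and none fell (median 0.151), with 3 without the set term, 4 without set 1 and 3 without set 2. Plaur, the urokinase receptor gene, had 21.0 and 21.4 CPM at 3 h, against 9.52 and 8.4 CPM at 0 h in EV cells. The groups stood apart, with a rise of 1.26 ± 0.16 (adjusted p = 5.41e-07). Ptgs2, which encodes cyclooxygenase 2, had 69.1 and 96.2 CPM at 3 h, against 34.6 and 27.8 CPM at 0 h, a rise of 1.46 ± 0.19 (adjusted p = 1.66e-05). Has2, a hyaluronan synthase gene, had 30.6 and 32.2 CPM at 3 h, against 11.8 and 11.5 CPM at 0 h, a rise of 1.44 ± 0.21 (5.95e-05). Of 19 cytoskeletal genes linked to serum response factor 8 rose and none fell (median 0.241). Filip1l had 278 and 322 CPM at 3 h, against 134 and 119.8 CPM at 0 h. Zyx, which encodes the focal adhesion protein zyxin, had 537 and 470.3 CPM at 3 h, against 319 and 262 CPM at 0 h, with rises of 1.26 ± 0.13 (adjusted p = 9.9e-07) and 0.80 ± 0.08 (1.97e-08). That count was 2 without the set term, 4 without set 1 and 3 without set 2, where 1 fell. Of 30 collagen and matrix genes 7 rose by at most a log2 of 0.60 (Tnc) and none fell (median 0.18), with 0 without the set term, 0 without set 1 and 1 without set 2.

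Among 19 apoptosis regulators 3 rose and 3 fell (median 0.0791), with 1 and 0 without the set term and without set 2 and 2 and 0 without set 1. Mcl1, which guards against apoptosis, had 238 and 251 CPM at 3 h, against 188 and 176 CPM at 0 h in EV cells, a rise of 0.43 ± 0.06 (adjusted p = 1.48e-05) that held in each fit. Bmf, whose BH3-only product promotes apoptosis, had 16.3 and 11.4 CPM at 3 h, against 30.3 and 25.4 CPM at 0 h, a fall (log2 fold change -1.04 ± 0.25, adjusted p = 0.00629). The fall of Bmf was lost without the set term (adjusted p = 0.138), without set 1 (0.0765) and without set 2 (0.223). Of 18 genes known as p53 targets 6 rose and 2 fell in these p53-deficient cells (median 0.169), Btg2 the most, with 2 and 0 without the set term, 1 and 1 without set 1 and 1 and 0 without set 2. The antioxidant gene Srxn1 rose by 0.78 ± 0.09 (adjusted p = 2.51e-07), with 107 and 81.9 CPM at 3 h, against 53.7 and 54.3 CPM at 0 h.

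Among called genes with a mean of at least 5 CPM, the largest falls were smaller in size than the largest rises. Ppp1r3c, which brings protein phosphatase 1 to glycogen, had 2.87 and 2.54 CPM at 3 h, against 10.1 and 6.89 CPM at 0 h in EV cells. Fam198a had 2.87 and 5.95 CPM at 3 h, against 9.93 and 13.5 CPM at 0 h. Both 3 h libraries were below both 0 h libraries, with changes of -1.59 ± 0.25 (adjusted p = 3.31e-05) and -1.32 ± 0.23 (0.000144). Hdac11, a histone deacetylase gene, had 16.5 and 14.5 CPM at 3 h, against 38.4 and 26.5 CPM at 0 h, a fall (log2 fold change -1.03 ± 0.16, adjusted p = 2.6e-05). Rab3il1, the gene of an activator of Rab proteins, had 33.9 and 29.2 CPM at 3 h, against 67.1 and 57.3 CPM at 0 h, a fall (log2 fold change -0.97 ± 0.13, adjusted p = 6.47e-06). With Map2k6 these were the 5 of the 20 largest falls that were called in each fit. The log2 fold changes of the other 15 ran between -1.26 and -1.03, among them Mrgpre, a receptor gene, Galnt5, which starts mucin-type glycosylation, Abcd2, a peroxisomal transporter gene, and the ephrin gene Efnb3, and each of them missed the threshold in at least 1 of those fits.

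Of 18 clock genes 4 rose and 3 fell (median 0.04), with 4 and 1 without the set term, 4 and 3 without set 1 and 3 and 3 without set 2. On the side that fell, Dbp, a bZIP factor driven by CLOCK, had 8.42 and 14.3 CPM at 3 h, against 19.5 and 34.0 CPM at 0 h in EV cells. Its relative Tef had 92.8 and 74.7 CPM at 3 h, against 141 and 113 CPM at 0 h, and the period gene Per3 had 15.6 and 14.7 CPM at 3 h, against 27.1 and 25.3 CPM at 0 h. Both 3 h values lay below both 0 h values for each gene, with changes of -1.22 ± 0.13 (adjusted p = 2.92e-08), -0.60 ± 0.10 (0.000121) and -0.79 ± 0.13 (5.05e-05). On the side that rose, Cry1, a repressor of CLOCK, had 37.4 and 36.9 CPM at 3 h, against 19.0 and 22 CPM at 0 h. Arntl, the partner of CLOCK, had 31.9 and 32.1 CPM at 3 h, against 14.6 and 18.9 CPM at 0 h, and Clock had 81.8 and 88.5 CPM at 3 h, against 58.4 and 67.2 CPM at 0 h. Their groups stood apart, with changes of 0.84 ± 0.13 (adjusted p = 1.6e-05), 0.91 ± 0.15 (4.41e-05) and 0.44 ± 0.09 (0.000821). Cry1, Arntl, Clock and Per3 were called in each fit, while Dbp and Tef were lost without the set term (adjusted p of 0.0741 and 0.117).

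Of 19 genes of the FOXO and starvation list 9 fell and none rose (median -0.235). Sesn3, which restrains growth signalling, had 75.2 and 78.2 CPM at 3 h, against 103 and 109 CPM at 0 h in EV cells. Sesn1, its relative, had 38.7 and 36.7 CPM at 3 h, against 54.8 and 48.3 CPM at 0 h. The groups stood apart, with changes of -0.47 ± 0.10 (adjusted p = 0.00112) and -0.44 ± 0.11 (0.00441). Fbxo32, the ubiquitin ligase gene atrogin-1, was at 18.6 and 13.2 CPM at 3 h, against 32.4 and 18.8 CPM at 0 h, a fall (log2 fold change -0.64 ± 0.14, adjusted p = 0.00144). Of 30 genes of S phase and mitosis 11 fell and none rose (median -0.346), and Kif11, a spindle motor gene, had 39.0 and 53.7 CPM at 3 h, against 60.7 and 76.0 CPM at 0 h (change -0.56 ± 0.14, adjusted p = 0.00847). Cdc20, which encodes a mitotic ubiquitin ligase subunit, had 39.9 and 56.9 CPM at 3 h, against 61.8 and 71.8 CPM at 0 h (change -0.46 ± 0.13, adjusted p = 0.0187). Each set fell for both genes. These counts rest on both sets and on the set term: the fits without the term, without set 1 and without set 2 each called 1 of the FOXO and starvation genes and 0 of the division genes. Without the set term the adjusted p was 0.114 for Sesn1, 0.497 for Fbxo32, 0.466 for Kif11 and 0.502 for Cdc20, and Sesn3 reached 0.0616 without set 1 and 0.0926 without set 2. Of 22 TGF-beta and BMP genes 4 rose and 6 fell (median 0.0314), with 3 and 3 without the set term, 0 and 1 without set 1 and 2 and 2 without set 2. The BMP targets Smad6 and Id2 fell, with changes of -0.82 ± 0.16 (adjusted p = 0.000489) and -0.68 ± 0.14 (0.000706). Smad6 lost its call without set 2 (adjusted p = 0.0542) and Id2 without set 1 (0.0597).

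**Figure D3:**
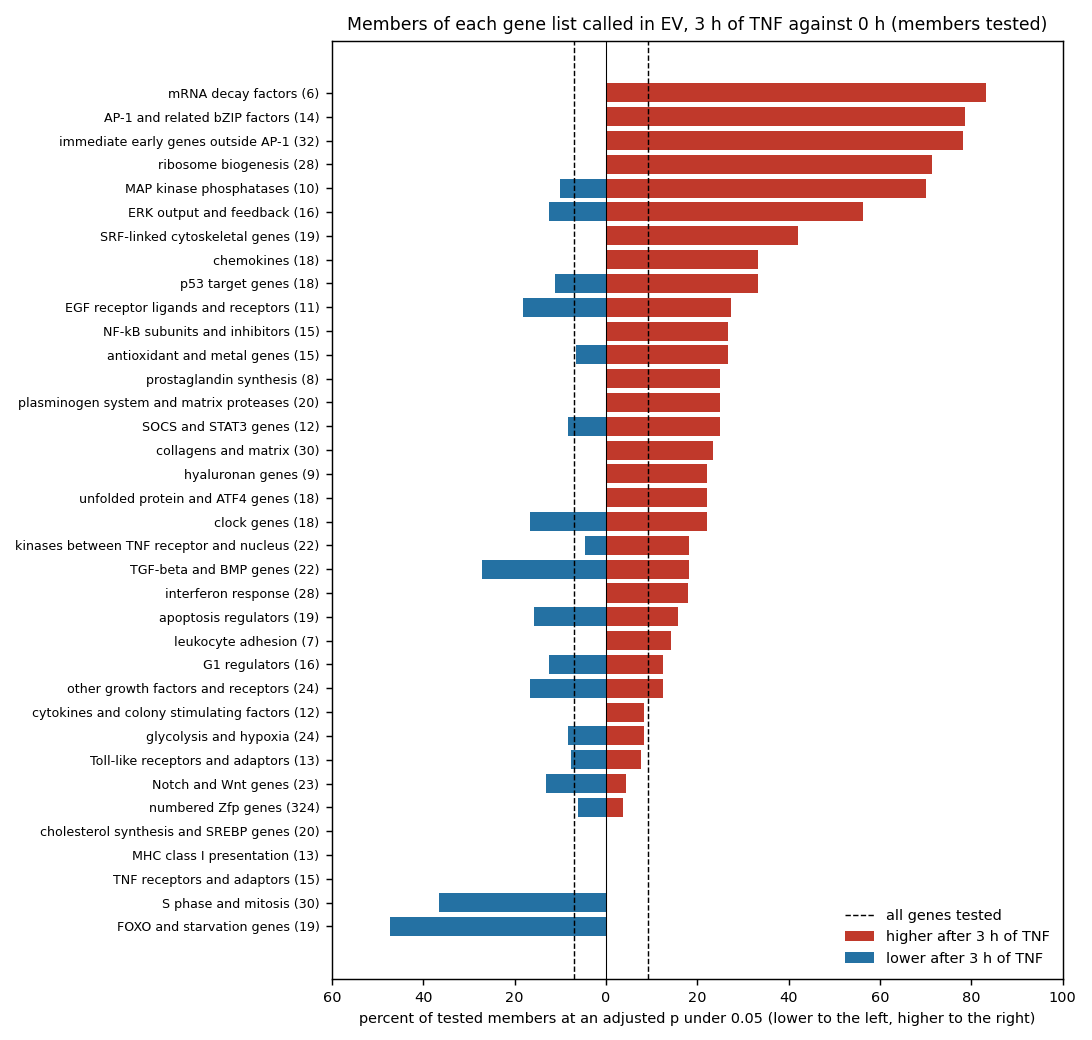
Percent of the tested members of each gene list that rose (red, to the right) or fell (blue, to the left) in EV cells at 3 h of TNF against 0 h, with the number tested in brackets; dashed lines mark 9.23% and 7% of all genes tested. Lists of messenger RNA decay, AP-1 and immediate early genes show the largest shares of rises, and FOXO and S phase genes the largest of falls.

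The remaining lists are given by their counts, beside 9.23% of all genes tested that rose and 7% that fell. No cholesterol synthesis gene of 20 was called (median 0.099). Of 24 glycolysis and hypoxia genes 2 rose and 2 fell, of 16 G1 regulators 2 and 2, of 23 Notch and Wnt genes 1 and 3, of 13 Toll-like receptor and adaptor genes 1 and 1, and of 12 SOCS and STAT3 genes 3 and 1. Each of the fits without the set term or without a set called at most 1 gene in each of these lists other than SOCS and STAT3, where they called 1 or 2. Of 15 antioxidant and metal genes 4 rose and 1 fell, with 1 or 2 rises in the other fits, and of 8 prostaglandin genes 2 rose and of 9 hyaluronan genes 2 rose, with 1 or 2 in the other fits. Of 324 numbered Zfp genes 12 rose and 20 fell (median -0.0608), with 3 and 4 without the set term, 5 and 2 without set 1 and 5 and 1 without set 2.

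The same 3 h were then compared with RelA-WT cells, to ask which of these changes differ where RelA is present. In RelA-WT cells 2303 of the 13665 genes rose (16.9%) and 1924 fell (14.1%), 30.9% in all. That total of 4227 was 2226 without the set term and 2372 and 2332 without RelA-WT of set 1 and of set 2, and the overlaps below rest on the full list. Of the 1261 genes that rose in EV cells 706 also rose in RelA-WT cells, 56% of the EV list and 30.7% of the RelA-WT list. Of the 957 that fell 580 also fell, 60.6% and 30.1% of the lists. The opposite direction was called in RelA-WT cells for 43 EV risers and 27 EV fallers. The difference between the responses was called for 1239 genes (9.07%), with the EV response higher for 450 (3.29%) and lower for 789 (5.77%). Among the EV risers 164 had the higher response in EV cells and 88 the lower one. The risers were chosen by the EV change that enters this difference, which tilts that split toward higher, so it is no separate result. Without the set term the difference was called for 120 genes as higher and 383 as lower. Across the fits without that term and without each EV or RelA-WT set, 74 higher and 278 lower differences were called every time.

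Several immediate early genes were above their 0 h level at 3 h in EV cells and near it in RelA-WT cells. Egr3 had 28.7 and 36.5 CPM at 3 h, against 7.08 and 7.68 CPM at 0 h in EV cells. In RelA-WT cells Egr3 had 5.87 and 10.5 CPM at 3 h, against 10.5 and 7.91 CPM at 0 h. Arc had 39.0 and 79.7 CPM at 3 h, against 14 and 19.4 CPM at 0 h in EV cells. In RelA-WT cells Arc had 11.1 and 18.6 CPM at 3 h, against 18.3 and 19.7 CPM at 0 h. The RelA-WT groups overlapped for both genes and the EV groups did not, and the responses differed by 2.15 ± 0.32 for Egr3 (adjusted p = 1.74e-05) and 2.14 ± 0.26 for Arc (1.73e-06). Dusp4 had 29.0 and 20.1 CPM at 3 h, against 14.3 and 11.5 CPM at 0 h in EV cells. In RelA-WT cells it had 7.69 and 8.17 CPM at 3 h, against 18.1 and 12.1 CPM at 0 h, so it rose in one and fell in the other (difference 1.73 ± 0.28, adjusted p = 4.07e-05). The responses of Dusp6, Hbegf, Filip1l, Zfp36l1 and Mcl1 were higher in EV cells by 1.35 ± 0.22, 1.68 ± 0.26, 1.15 ± 0.19, 0.54 ± 0.12 and 0.64 ± 0.09. These 8 differences were called in each fit.

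The larger differences of Nr4a1 and Fos were not called in each fit, where a left-out set leaves 1 library at each time. Their log2 change in EV cells was up in both sets, 2.08 and 2.44 for Nr4a1 and 2.12 and 3.14 for Fos. Nr4a1 was at 12.9 and 13.1 CPM at 3 h in RelA-WT cells and Fos at 7.49 and 8.45 CPM, below every EV value at 3 h. Their responses were higher in EV cells by 2.88 ± 0.60 (adjusted p = 0.00268) and 2.48 ± 0.52 (0.00261). The call was lost for Nr4a1 without RelA-WT of set 2 (adjusted p = 0.0541) and for Fos without EV of set 2 (0.0969). By list, the EV response was higher for 7 of 10 MAP kinase phosphatases and 8 of 16 genes of ERK output, and lower for none of either. It was higher for 11 of 32 immediate early genes and lower for 3. Over all genes tested it was higher for 3.29% and lower for 5.77%. These list counts are from the fit with the set term and all sets only. For 28 ribosome biogenesis genes and 30 genes of S phase and mitosis no difference was called, with median differences of 0.0102 and 0.0263.

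**Figure D4:**
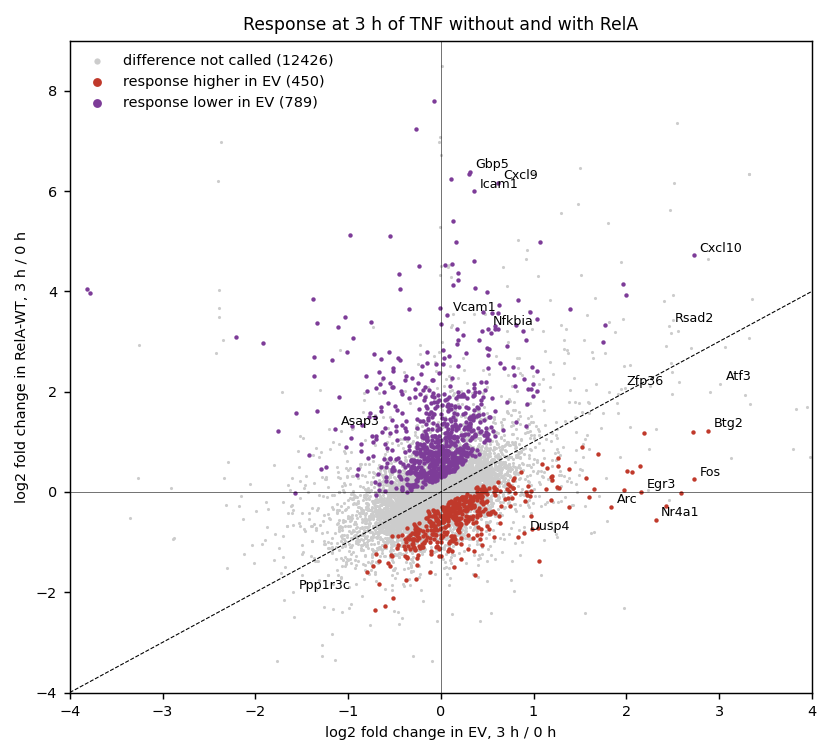
Log2 fold change at 3 h of TNF over 0 h in EV cells (horizontal) against that in RelA-WT cells (vertical) for each gene tested; red points have a higher response in EV cells (450), purple ones a lower response (789), and the dashed line marks equal responses. 8 genes lie outside the axes; immediate early genes such as Fos, Nr4a1 and Egr3 lie to the right at vertical values near 0, and Vcam1 and Nfkbia lie near the vertical axis.

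Several inflammatory lists held lower responses in EV cells. Over all genes tested the EV response was lower for 5.77% and higher for 3.29%. The list counts given next are from the fit with the set term and all sets only. The EV response was lower for 11 of 15 genes of NF-kB subunits and inhibitors, 10 of 13 MHC class I genes, 11 of 28 interferon response genes, 7 of 18 chemokines and 5 of 7 adhesion genes, and higher for 1 NF-kB gene and none of the others. Vcam1 had 133 and 111 CPM at 3 h, against 128 and 105 CPM at 0 h in EV cells. In RelA-WT cells Vcam1 had 2787 and 2556 CPM at 3 h, against 259.5 and 204 CPM at 0 h. Nfkbia had 41.9 and 36.9 CPM at 3 h, against 29.1 and 26.2 CPM at 0 h in EV cells. In RelA-WT cells Nfkbia had 489.9 and 444 CPM at 3 h, against 50.3 and 47.6 CPM at 0 h. The RelA-WT values at 3 h were above all others, and the responses differed by -3.47 ± 0.23 (adjusted p = 2.59e-09) and -2.75 ± 0.23 (2.76e-08). Csf1, Irf1 and Birc3 differed by -2.61 ± 0.22, -2.90 ± 0.23 and -2.71 ± 0.21. Cxcl10 rose in both but less in EV cells: RelA-WT cells had 1585 and 1572 CPM at 3 h and 57.6 and 62.6 CPM at 0 h, a difference of -1.99 ± 0.26 (adjusted p = 1.88e-05). These differences were called in each fit. Asap3, the gene of an Arf GTPase activator, moved in opposite directions, with 11.5 and 11.9 CPM at 3 h, against 27.8 and 25.0 CPM at 0 h in EV cells. In RelA-WT cells it had 54.6 and 57.2 CPM at 3 h, against 28.0 and 20.4 CPM at 0 h (difference -2.40 ± 0.32, adjusted p = 1.26e-05). Its fall in EV cells was lost without set 1 (adjusted p = 0.0947) and set 2 (0.101).

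The 3 h level was then placed in the course of the EV cells at 0, 0.5, 1, 3 and 8 h. Among the 20 largest rises 12 had a higher mean at 0.5 h or 1 h than at 3 h, and 11 had a higher mean at 8 h. None of the 20 largest falls stood lower at 0.5 h or 1 h than at 3 h, and 18 stood lower at 8 h. The genes were chosen by their 3 h change, which tilts these counts toward 3 h standing furthest from 0 h. No share over all genes tested is given for them, so they only describe the chosen genes. Comparing 3 h with 1 h of TNF, 597 genes were higher (4.37%) and 570 lower (4.17%), 8.54% in all, with 101 and 48 without the set term and 170 and 116 in all without set 1 and without set 2. This comparison shares the 3 h libraries with the one above.

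Fos had a second rise: its means in EV cells were 7.40, 230.5, 9.22, 45.5 and 25.1 CPM at 0, 0.5, 1, 3 and 8 h. At 1 h its libraries had 11.5 and 6.97 CPM, below both 3 h libraries, a difference of 2.45 ± 0.30 between 3 h and 1 h (adjusted p = 3.75e-05). In RelA-WT cells its means were 7.15, 163, 7.21, 7.97 and 8.06 CPM. A rise from 1 h to 3 h was not particular to EV cells. In RelA-dTAD cells Fos had means of 10.5 CPM at 1 h and 36.8 CPM at 3 h. There Egr1 had 241 and 394 CPM at these times, and Ier2 42.0 and 87.8 CPM. Egr1 went through 128, 1205, 196, 483 and 569 CPM in EV cells, Ier2 through 24.2, 198, 35.4, 99.3 and 117, and Zfp36 through 13.3, 117, 15.4, 49.7 and 55.8. Each was higher at 3 h than at 1 h, in both sets, by 1.36 ± 0.30 (adjusted p = 0.00911), 1.52 ± 0.20 (7.7e-05) and 1.71 ± 0.20 (1.79e-05). Cxcl10 peaked at 3 h among the times sampled in EV cells, with means of 17.5, 26.0, 32.9, 117 and 56.7 CPM. Other genes were still on the way at 3 h: Gjb2 reached a mean of 260.1 CPM at 8 h and Cd44 2089 CPM, while Dbp went down to 1.74 CPM and Rab3il1 to 8.35 CPM. Nr4a1 did not follow the second rise, with means of 217 CPM at 1 h and 79.6 CPM at 3 h. For Btg2 the sets went opposite ways, with 154 and 80.1 CPM at 1 h and 133 and 138 CPM at 3 h. Its difference between 3 h and 1 h was not called (0.31 ± 0.18, adjusted p = 0.308).

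**Figure D5:**
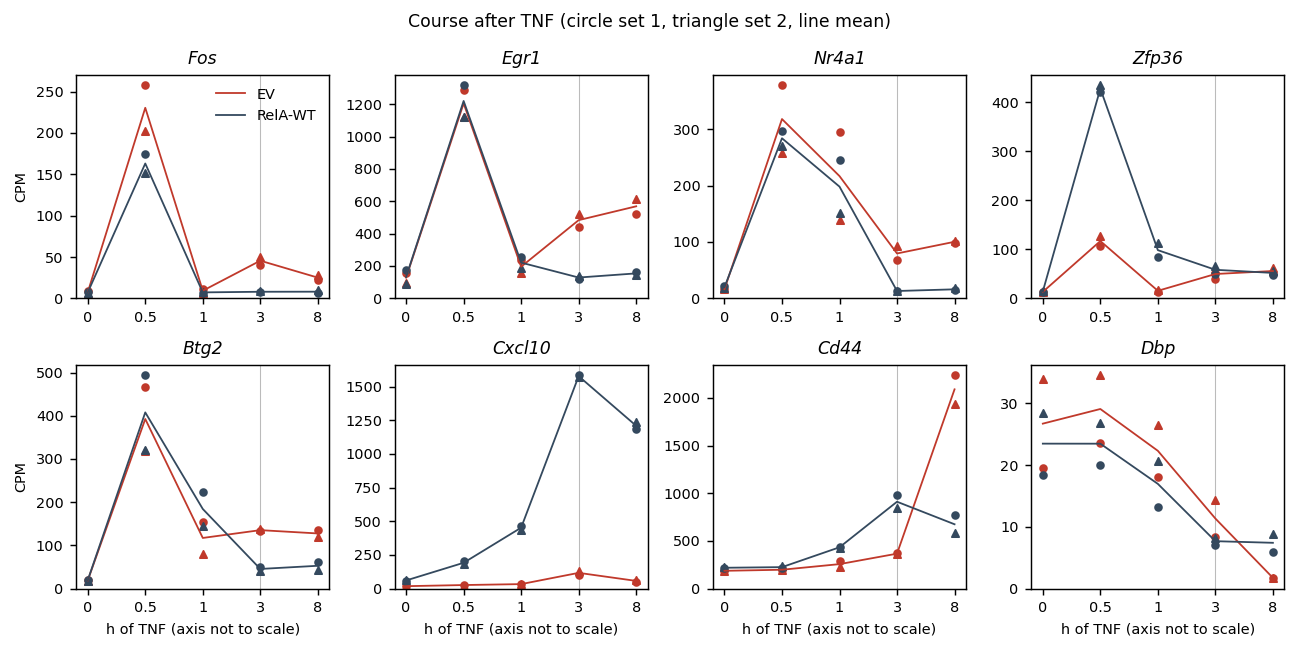
CPM of 8 genes before TNF and after 0.5, 1, 3 and 8 h (axis not to scale) in EV cells (red) and RelA-WT cells (dark blue); circles are set 1, triangles set 2, lines join means and the grey line marks 3 h. Fos and Egr1 are low at 1 h in both and higher again at 3 h in EV cells. Cxcl10 rises up to 3 h in EV cells but stays below its RelA-WT mean at each time.

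RelA-dTAD cells, which have RelA without its activation domains, were compared in the same way. The 3 h response differed between EV and RelA-dTAD cells for 0 of 13665 genes (0%) in edgeR, with 356 genes (2.61%) at an unadjusted p under 0.05, a smallest adjusted p of 0.072, and 0 genes in DESeq2. This does not show equal responses: the median SE of the difference was 0.18 on the log2 scale over all genes, and the estimates of 389 genes were more than 1 apart. For the 20 largest rises the difference ran between -0.49 and 1.38 on the log2 scale, with a median SE of 0.428. Arc had 40.9 and 59.1 CPM at 3 h and 14 and 24.3 CPM at 0 h in RelA-dTAD cells, a difference of 0.49 ± 0.23. For Cxcl10 the difference was -0.11 ± 0.26, for Fos 0.21 ± 0.45 and for Vcam1 -0.67 ± 0.23. RelA-DB cells had 1 library at 3 h and 1 at 0 h, both from set 1, so their values carry no test. All 20 of the largest rises were higher at 3 h than at 0 h in RelA-DB cells, by a median of 2.22 on the log2 scale beside 2.15 in EV cells and 1.24 in RelA-WT cells. All 20 of the largest falls were lower, with medians of -1.11 in RelA-DB, -1.09 in EV and -1.31 in RelA-WT cells. The RelA-DB changes are differences of log2 CPM with a prior count of 2, and the EV and RelA-WT changes are estimates of the fit. The genes were chosen by the size of their EV change, so these medians do not compare the constructs evenly. Fos stood at 42.0 CPM at 3 h and 7.53 CPM at 0 h in RelA-DB cells, and Vcam1 at 159 and 127 CPM.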

How the data were processed

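Polyadenylated RNA of each library was made into single-end libraries with a strand-keeping kit, per the labels' protocols. The authors deposited raw read counts per gene. Reads were trimmed with cutadapt 1.9.1, aligned with STAR to mm10 and counted with featureCounts 1.5.0, per the submitters' processing notes, which also name DESeq2. The strand setting and annotation are not given in the sources used here, so reads of overlapping or near-identical genes may be split or shared. Of 45706 gene entries 45143 (98.77%) had a symbol, and 16412 had no read in the libraries used.

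The counts of 40 libraries (20 groups: EV, RelA-dTAD, RelA-dTA1 and RelA-WT at 5 times) were scaled by trimmed mean of M values and filtered with filterByExpr, which left 13665 genes. CPM values are counts over the scaled library size. They were fitted with edgeR 4.0.16 in R 4.3.3 (limma 3.58.1), using the robust quasi-likelihood test with set as a term and Benjamini-Hochberg adjustment at 0.05 over all genes. With 2 libraries a group, the spread is borrowed from all groups (19 residual degrees of freedom, common dispersion 0.00381). Totals ran from 4422396 to 6915919 reads in set 1 and from 10440202 to 22908738 in set 2, so set 1 carries the larger counting error. The labels' replicate numbers give the sets. Deviations from group means of libraries of the same set correlated with r of 0.357 to 0.668 in 190 pairs of groups (0.58 for EV at 3 h and 0 h), so the sets were taken as pairs. Standard errors are the log2 fold change divided by the root of F.

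The members and the 42 gene lists were chosen with earlier results of these data known. Named genes are the 20 called genes with the largest rise and the largest fall at a mean of at least 5 CPM, up to 4 genes of each list with the smallest p, the 10 largest differences from RelA-WT in each direction, and a short list of NF-kB and AP-1 genes. Batf, Batf3, Clock, Ddx21, Dusp5, Dusp7, Fosl2, Gadd45b, Gbp2, Ifit1, Jdp2, Jun, Klf4, Klf6, Maff, Mafg, Myc, Nop2, Sik1, Tap1, Tef, Tnf, Tnfrsf1a and Zc3h12a were added after their values were seen, as were the choices among named genes. The test was run on simulated data for EV cells at 3 h against 0 h over 13665 genes. It recovered 80.6% of 67 genes changed 1.5-fold and 100% of those changed 2-fold or 4-fold, and called 7 of 13465 unchanged genes. The changed genes were drawn from those with a mean of at least 5 CPM over the 4 EV libraries. Counts were drawn from the means and dispersions fitted by the same model. The simulation therefore does not bear on lower levels or on the calls lost without the set term or without a set. Alternatives were the fit without set, each EV set left out, relative log expression factors, no filter, Gm42418 left out, all 75 libraries, the 10 or 4 EV libraries alone, DESeq2 1.42.0 and, added after seeing the data, each RelA-WT or RelA-dTAD set left out. The 35 libraries of other constructs entered no comparison apart from the RelA-DB values. A named gene is not reported here.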

Additional observations from a re-analysis of the deposited data

Results flagged for a closer look

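The 10 genes with the largest called excess of the EV response over the RelA-WT response, in a test of the difference itself, were led by immediate early genes. The difference, EV minus RelA-WT on the log2 scale, was 2.88 for Nr4a1, 2.48 for Fos, 2.44 for Fosb, 2.15 for Egr3, 2.14 for Arc, 2.03 for AI593442, 1.93 for Egr1, 1.73 for Dusp4, 1.73 for Ccn2 and 1.70 for Ccn1. Egr3, Arc and Dusp4 were called in each fit run, and each of the others missed the threshold in at least 1. Ccn1 and Ccn2 encode matrix proteins known as targets of serum response factor and YAP. Ccn2 had 246 and 294 CPM at 3 h, against 208 and 116 CPM at 0 h in EV cells, and 73.0 and 72.3 CPM at 3 h, against 180.4 and 105 CPM at 0 h in RelA-WT cells.

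For the 10 genes with the largest called shortfall of the EV response the difference was -7.87 for Cd83, -7.50 for Gm16685, -6.14 for Hcn4, -6.09 for Rcsd1, -6.06 for Gbp5, -6.05 for Icosl, -5.65 for Ccrl2, -5.64 for Icam1, -5.56 for Cxcl9 and -5.26 for Ankrd33b. Icam1 had 1.61 and 5.87 CPM at 3 h, against 2.04 and 4.20 CPM at 0 h in EV cells. Cd83, Gm16685, Hcn4, Rcsd1, Icosl, Ccrl2 and Ankrd33b had at most 8 reads in each of the 4 EV libraries. Gbp5 had 6 to 15 reads and Cxcl9 4 to 10, so the sizes of these differences rest on few reads in EV cells. The 10 genes met the minimum mean of 5 CPM through RelA-WT cells. Cxcl9, an interferon-induced chemokine gene, had 0.716 and 0.793 CPM at 3 h, against 0.680 and 0.396 CPM at 0 h in EV cells, and 86.4 and 83.7 CPM at 3 h, against 1.27 and 1.1 CPM at 0 h in RelA-WT cells. Cxcl9 was called in each fit. Without EV of set 2 the adjusted p was 0.116 for Icam1, 0.0644 for Gbp5 and 0.978 for Cd83.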

How the results depend on the processing

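Without the replicate block for set, 538 genes changed in EV cells at 3 h against 0 h (537 of them among the 2218), 149 at 3 h against 1 h, 2226 in RelA-WT cells at 3 h against 0 h, 503 differed between EV and RelA-WT and 0 between EV and RelA-dTAD. Leaving out 1 set of a construct at a time gave 526 to 580 genes for EV cells at 3 h against 0 h, 116 to 170 at 3 h against 1 h, 2332 to 4114 for RelA-WT cells, 649 to 901 for EV against RelA-WT and 0 to 1 for EV against RelA-dTAD. For RelA-WT cells the upper end of that range is from fits that left out EV libraries, which are not part of that comparison. The lower end is from fits that left out RelA-WT libraries. The 4 EV libraries alone called 3732 genes, and with no expression filter 19 genes differed between EV and RelA-dTAD. Relative log expression factors, DESeq2, all 75 libraries, the 10 EV libraries and leaving out Gm42418 kept these counts within 1.5 times.

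Of 202 named genes, 135 kept direction and side of the threshold without the block, 135 without EV of set 1 and 124 without EV of set 2. The sign turned only for genes that were not called. Without set 1 and without set 2 the log2 change was 0.012 and -0.30 for Birc3, 0.50 and -0.35 for Icam1, -0.36 and 0.33 for Tap2, 0.43 and -0.18 for Traf6, 0.43 and -0.91 for Csf1r, 0.82 and -0.92 for Des and 0.69 and -0.87 for Acta1. Without the block it was -0.053 for Csf1r and -0.026 for Acta1, and for Csf1r -0.011 with the 10 EV libraries and -0.0042 with the 4 libraries. A left-out set leaves 1 library at each time, assumed to vary like the others. The cause of these shifts was not tested. With 5476023 to 12289045 reads a library, genes under about 1 CPM rest on a few reads.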

Other observations

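Several genes of other systems rose. Ptger4, a prostaglandin receptor gene, had 5.37 and 5.39 CPM at 3 h, against 1.77 and 3.25 CPM at 0 h in EV cells (log2 fold change 1.00 ± 0.29, adjusted p = 0.0152). Tnfaip6, which encodes a hyaluronan-binding protein, had 22.7 and 16.4 CPM at 3 h, against 11 and 9.19 CPM at 0 h (change 0.93 ± 0.18, adjusted p = 0.00035). Plk3, a stress kinase gene, had 16.1 and 14 CPM at 3 h, against 8.44 and 6.26 CPM at 0 h (change 1.07 ± 0.26, adjusted p = 0.00627). The 3 h values lay above the 0 h values for the 3 genes. Without the set term the adjusted p was 0.128 for Tnfaip6 and 0.0727 for Plk3, and without set 1 0.232 for Ptger4. Among endothelial markers Tek, the angiopoietin receptor gene, had 22.9 and 15.2 CPM at 3 h, against 13.9 and 11.8 CPM at 0 h (change 0.52 ± 0.17, adjusted p = 0.0288), lost without the set term (adjusted p = 0.208), while Tie1 had 0 reads in the 4 libraries. The summed level of the endothelial markers was 44.4 CPM in both libraries at 3 h, against 29.3 and 38.5 CPM at 0 h. Their part in the results was not tested.

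Zfp521, a zinc finger factor gene, had 174 and 172 CPM at 3 h, against 267 and 233 CPM at 0 h in EV cells (change -0.53 ± 0.08, adjusted p = 1.33e-05), a fall called in each fit. Tril, a Toll-like receptor adaptor gene, had 14.3 and 7.61 CPM at 3 h, against 18.9 and 13.1 CPM at 0 h (change -0.61 ± 0.19, adjusted p = 0.027). Axin2, a Wnt feedback gene, had 7.16 and 5.07 CPM at 3 h, against 9.93 and 8.55 CPM at 0 h (change -0.64 ± 0.22, adjusted p = 0.0395). Without the set term the adjusted p was 0.597 for Tril and 0.341 for Axin2. Of TGF-beta genes that rose, Smad3, which carries the signal, had 212 and 196 CPM at 3 h, against 155 and 163 CPM at 0 h (change 0.35 ± 0.07, adjusted p = 0.000768), lost without set 1 (adjusted p = 0.114).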
